A study of Mus musculus with 19 samples.

Results

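Late-opening peaks are regions of chromatin whose accessibility, among untreated cells, stood at its highest 1 week after neurospheres (NSPs) were placed in differentiation medium. They were chosen by their normalised reads in ATAC-seq, the assay in which a transposase inserts sequencing adapters into open chromatin. A peak was taken when its mean over the 1 week libraries was at least 50 and at least 2 times each of the means of NSPs, 24 h and 72 h. The rule took 2489 of 90154 peaks, or 2.76% of the table. The values that chose the peaks are therefore the untreated ones, and differences among the untreated groups are given below as a description and without a test.

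The series holds 19 ATAC-seq libraries in 6 groups. The NSPs (3 libraries) were grown with EGF from neural stem cells of the ventricular zone of single wild-type C57BL/6J mouse brains at embryonic day 14. Cells differentiating towards astrocytes in serum-containing medium on poly-L-ornithine were sampled without treatment at 24 h (3 libraries), 72 h (3 libraries) and 1 week (4 libraries). Cells given TNF at 50 ng per ml were sampled at 24 h (3 libraries) and 72 h (3 libraries), and no TNF library of 1 week was analysed here. The labels name no separate culture or animal for each library, so that the p-values below measure only the spread between these libraries, which may be technical. A tag stands in the library names of all 72 h, 72 h TNF and 1 week samples and in no other name, and differences between tagged and untagged libraries cannot be told apart from differences in time.

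Chromatin opens where nucleosomes are displaced, usually at gene starts and at distal elements that bind transcription factors. Gene starts of widely used genes are open in most cell types, whereas distal elements differ between cell types and between stages of differentiation. Astrocytes form from neural stem cells after neurogenesis, and their maturation proceeds over many days, with changes in cell shape, in adhesion to the substrate and in the transport of ions, lipids and metabolites. Fos and Jun proteins bind AP-1 sites, TEAD proteins bind a short motif and act with the co-activators YAP and TAZ, and serum response factor binds CArG boxes at many genes of the actin cytoskeleton.

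Most late-opening peaks lay away from gene starts, and the bases of such peaks were not read, since no genome sequence was used here. For 10 late-opening peaks, at least 200 of the 300 bases around a gene start (250 before it and 50 after) lay inside the peak. The 250 bases before the start are shown for the 5 of these genes with the largest ratio of the 1 week mean to the highest earlier mean, because they are the late-opening elements whose sequence could be read. All are written 5′ to 3′ on the strand of the gene, from RefSeq on GRCm38.p6, the same assembly as mm10. Capitals mark AP-1 (TGANTCA), TEAD (GGAATG), CRE (TGACGTCA) and CArG box matches, searched on both strands together with a STAT (TTCNNNGAA) motif and a paired NFI site, which were not found in these 10 windows.
Crygs, chr16:22811411-22811660, minus strand: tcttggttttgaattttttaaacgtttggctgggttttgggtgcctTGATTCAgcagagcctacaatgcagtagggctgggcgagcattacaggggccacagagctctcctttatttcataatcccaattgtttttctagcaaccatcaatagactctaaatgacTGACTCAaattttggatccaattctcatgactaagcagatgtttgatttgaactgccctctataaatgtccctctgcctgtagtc
Trip6, chr5:137314242-137314491, minus strand: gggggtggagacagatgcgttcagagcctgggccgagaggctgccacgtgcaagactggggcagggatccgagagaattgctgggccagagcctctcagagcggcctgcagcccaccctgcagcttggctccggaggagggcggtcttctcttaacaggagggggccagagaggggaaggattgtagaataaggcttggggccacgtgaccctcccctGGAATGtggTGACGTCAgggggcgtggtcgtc
Tpm1, chr9:67049214-67049463, minus strand: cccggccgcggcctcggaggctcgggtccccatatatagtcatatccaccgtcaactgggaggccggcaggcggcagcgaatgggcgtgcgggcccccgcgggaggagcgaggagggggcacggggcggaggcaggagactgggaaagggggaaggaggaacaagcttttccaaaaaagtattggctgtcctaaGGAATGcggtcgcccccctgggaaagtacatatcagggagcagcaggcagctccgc
Sgms1, chr19:32349317-32349566, minus strand: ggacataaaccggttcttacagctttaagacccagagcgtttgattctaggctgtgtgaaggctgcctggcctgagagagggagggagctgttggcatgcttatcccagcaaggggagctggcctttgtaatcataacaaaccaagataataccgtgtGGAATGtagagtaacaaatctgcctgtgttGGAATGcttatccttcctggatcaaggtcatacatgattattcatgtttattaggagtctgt
Myl9, chr2:156775214-156775463, plus strand: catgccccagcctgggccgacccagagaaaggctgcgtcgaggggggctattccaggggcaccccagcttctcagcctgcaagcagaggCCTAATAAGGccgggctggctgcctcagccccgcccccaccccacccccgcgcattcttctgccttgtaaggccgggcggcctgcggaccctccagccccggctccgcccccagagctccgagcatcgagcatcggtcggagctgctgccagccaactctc

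The Crygs window, at a lens crystallin gene, held 2 AP-1 matches, at 204 and 85 bases before the start. Trip6 encodes a LIM-domain protein of focal adhesions, and its window held a TEAD match 32 bases before the start, a CRE match 23 bases before it and a CArG box 1 base after it, beyond the bases shown. Tpm1 encodes a tropomyosin that coats actin filaments, and its window held a TEAD match at 56 bases before the start. Sgms1, a sphingomyelin synthase gene, held 2 TEAD matches, at 92 and 62 bases. Myl9, which encodes a regulatory light chain of myosin, held a CArG box at 161 bases. Over the 10 windows, a TEAD match occurred in 5 (50.0%), against 10.9% of the 9599 start windows covered by any peak and 13.6% of all 21263 start windows. A CArG box occurred in 2 of 10 (20.0%), against 1.22% of covered and 1.52% of all windows, and an AP-1 match in 2 of 10 (20.0%), against 4.24% and 6.99%. The GC box (GGGCGG) occurred in 40.0% of the 10 windows and in 69.7% of covered windows, and the CCAAT box in 30.0% and 41.8%. The 10 windows had a median GC content of 54.3%, against 62.3% of all covered windows. With 10 windows these shares are a description only, and a match is not a measured binding site.

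Reads in peaks ranged from 9640256 to 39349111 per library, and the sum of the deposited values was higher in the 1 week libraries (19611555 to 21214238) than in the 72 h libraries (15714420 to 16439739). NSP replicate 1 stood apart from the other NSP libraries, with a Spearman correlation over peaks of 0.916 to 0.926, against 0.983 between the other pair. Without it, the rule took 2475 peaks, of which 2474 were among the 2489. Scaling each library to the same total took 952 peaks, all of them among the 2489, and loess scaling took 3785 peaks, of which 2212 were. The size of the set thus depended on the scaling.

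Most late-opening peaks started low, with an upper quartile of 27.4 normalised reads over their NSP means, though some were open in NSPs. The median over the 2489 peaks was 9.42 to 11.7 normalised reads in the 3 NSP libraries. It was 39.8 to 48.0 in the 24 h libraries, 59.8 to 62.5 in the 72 h libraries and 152 to 176 in the 1 week libraries. The 4 groups did not overlap in these medians, which were higher at each later untreated time, while the median over all 90154 peaks stayed between 82.1 and 85.9 in every group. The rule required the 1 week mean to exceed the others, so that the gap before 1 week was in part fixed by the choice. The late-opening peaks held 0.409% to 0.455% of the signal of an NSP library and 3.59% to 3.89% of that of a 1 week library. In bulk cultures, a change in the share of cells that have a peak open and a change in its openness per cell cannot be told apart.

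**Figure D1:**
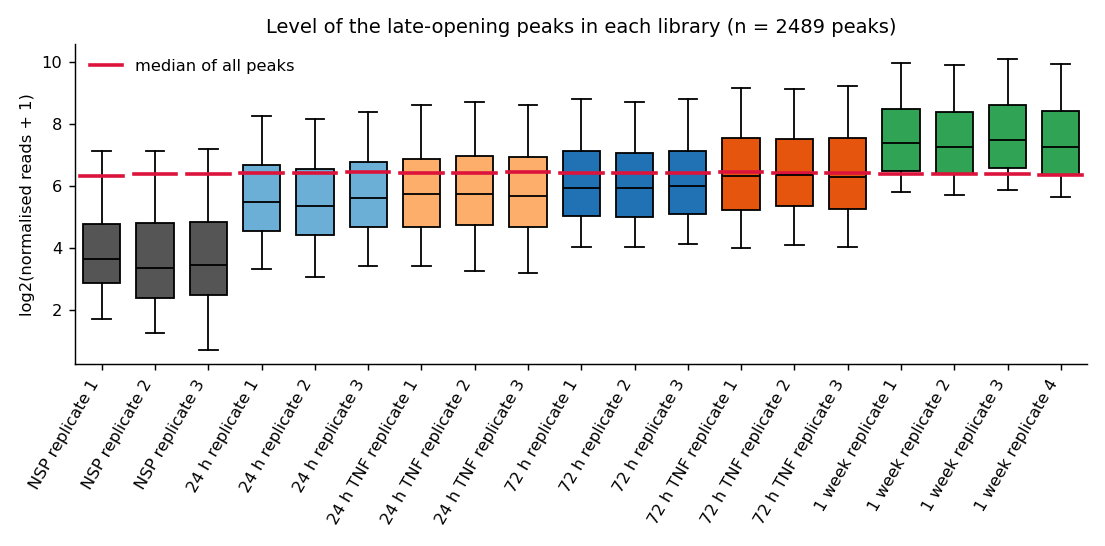
Level of the 2489 late-opening peaks in each of the 19 libraries, as log2(normalised reads + 1); boxes span the quartiles with the median, whiskers the central 90% of peaks, and red lines mark the median of all peaks. The boxes rise from NSPs to 1 week, the medians of the TNF libraries lie above the untreated ones of the same time, and only the 1 week boxes have their medians above the red line.

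The ratio of the 1 week mean to the highest of the other untreated means had a median of 2.40, with quartiles of 2.18 and 2.82, and reached 8.86. A ratio of 3 or more was found in 477 peaks, of 4 or more in 145 and of 5 or more in 44. In 2464 peaks (99.0%), all 4 libraries of 1 week lay above all 9 other untreated libraries, as the rule largely required (14.0% of all peaks did), and the median coefficient of variation among the 1 week libraries was 13.0%. The peaks nearest the ratio threshold had ratios of 2.0001, 2.0004 and 2.0004 inside it, and 1.9999, 1.9999 and 1.9998 outside it. Near the level threshold the 1 week means were 50.0, 50.0 and 50.2 inside and 49.8, 49.7 and 49.7 outside. A further 249 peaks with a 1 week mean of at least 50 had ratios from 1.95 to 2, and 188 late-opening peaks had ratios from 2 to 2.05, so that no gap separated the set from its neighbours.

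Most of them already rose before 1 week. The rule used these means and required the 1 week mean to be at least 2 times the 72 h mean, so their order is a description only. In 1993 peaks (80.1%) the means went up in the order NSP, 24 h and 72 h. So they did in 21821 of the 88919 peaks that passed a filter on low reads. In 473 late-opening peaks the order was another one, with NSPs not the highest. The remaining 23 peaks (0.924%) were highest in NSPs before 1 week. The stepwise peaks had median levels of 9.18 in NSPs, 40.4 and 66.3 at the 24 h and 72 h steps and 166 after 1 week. Of the 473 peaks of another order, 429 had a 24 h mean above the 72 h mean and 44 the reverse, and their median levels were 54.4 (24 h), 46.8 (72 h) and 142 (1 week).

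The peak with the largest ratio lay in Ptprk, which encodes a receptor-type tyrosine phosphatase of cell contacts (chr10:28359290-28359790, 285 kb from the start). Its 1 week libraries read 81.1, 81.8, 92.4 and 99.7 normalised reads. Its NSP libraries read 0.584, 1.41 and 5.98, those of 24 h 10.2, 5.90 and 13.5, and those of 72 h 16.7, 10.8 and 2.55. The mean was 11.2 at 24 h TNF and 28.2 at 72 h TNF, and all 4 libraries of 1 week were above all others.

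A peak in Aldh1a1, a retinaldehyde dehydrogenase gene of retinoic acid synthesis, lay at chr19:20614241-20614741, 12.5 kb from the start. It read 96.6 to 120 in the 1 week libraries and 3.32 to 8.76 in NSPs. Both untreated times between them lay low, at 10.3 to 24.6 (24 h) and 15.4 to 17.8 (72 h). A peak 77.4 kb from Col5a2, a fibrillar collagen gene (chr1:45580408-45580908), was the most even of this group at 1 week, with 385, 383, 383 and 365. It read 42.5 to 67.6 at 72 h and 1.99 to 9.93 in NSPs.

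Other peaks of large ratio lay in Slc24a3, a potassium-dependent sodium/calcium exchanger gene (ratio 8.28), in Enox2 (7.84), in Abcd3, a peroxisomal fatty acid transporter gene (6.95), in Ptprd, another receptor phosphatase gene (6.42), and in Zfp760 (6.29). Outside genes, the nearest genes were Abca8b, a lipid transporter gene (81.4 kb, ratio 7.47), Sox2, a neural stem cell transcription factor gene (333 kb, ratio 7.20), and Esp23 (128 kb, ratio 7.10). The Abca8b-side peak read 317 to 442 at 1 week and 37.3 to 54.8 at 72 h, with no overlap. The Sox2-side peak was at 1 read in each NSP library (0.471 to 0.664 normalised reads) and read 41.8 to 72.6 at 1 week. A value of 1 read is the lowest of each library and may stand for no reads. The nearest gene is a position only, and no link between a peak and a gene's expression was measured.

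The remaining peak of the 12 with the largest ratios (8.64) lay on the patch scaffold CHR_MG3835_PATCH (11355314 to 11355814). It was at 1 read, the lowest value of each library, in each of the 9 NSP, 24 h and 24 h TNF libraries. It read 68.2 to 92.1 at 72 h, 81.3 to 134 at 72 h TNF and 632 to 746 at 1 week. Of the 5 peaks on this scaffold, 3 were late-opening, and all 3 had 3 reads or fewer in each of those 9 libraries, which are the libraries whose names lack the tag. Only 1 late-opening peak elsewhere shared this pattern.

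**Figure D2:**
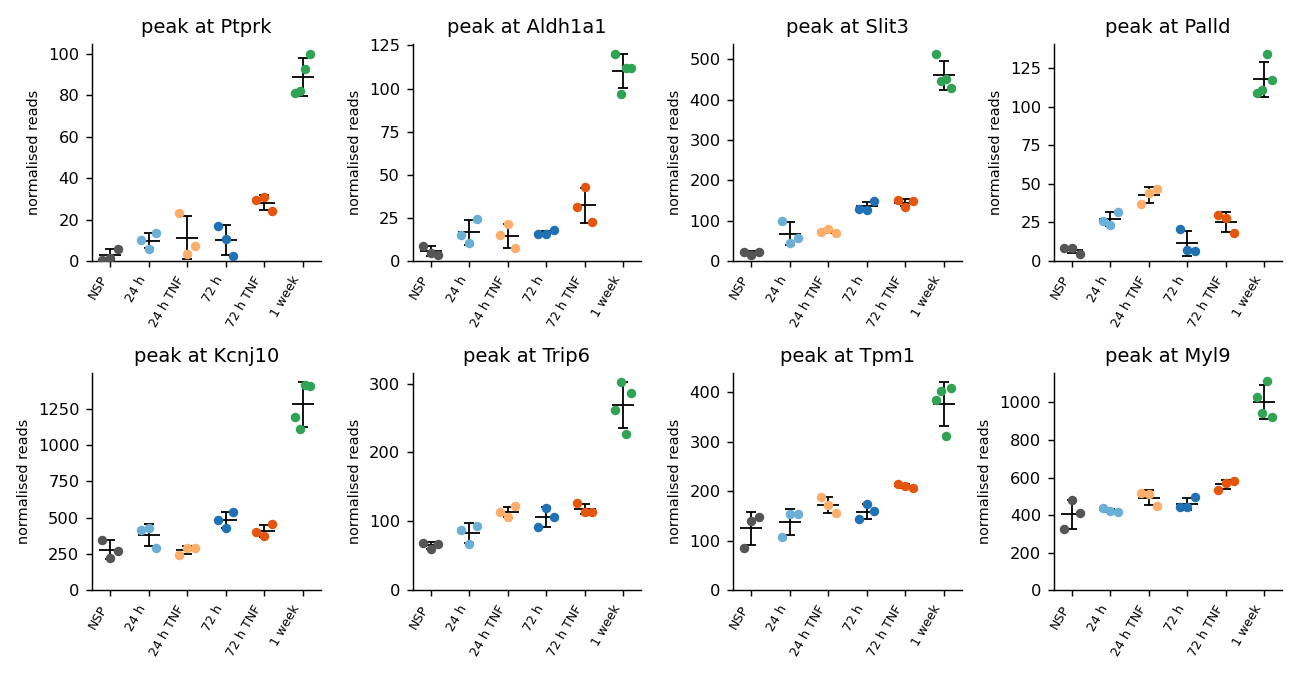
Normalised reads per library in 8 late-opening peaks, grouped by NSP, 24 h, 24 h TNF, 72 h, 72 h TNF and 1 week; points are libraries, and bars the mean ± SD. In each of the 8 panels the 1 week libraries stand above all others; at Palld the 72 h libraries (6.37 to 20.6) lie below those of 24 h (23.6 to 32.0).

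Whether these regions also differed in accessibility between the TNF times was asked by comparing groups that the rule did not use. The spread and the filter on low reads came from all 19 libraries, including those of the rule. A peak could thus pass the filter through its 1 week reads. The 72 h TNF and 1 week libraries carry the name tag, and the 24 h TNF libraries do not. In these respects the comparison is not independent of the choice of the peaks. The 72 h TNF libraries were compared with the 24 h TNF libraries by limma on log2(normalised reads + 1), across 88919 peaks that passed a filter on low reads, and all 2489 late-opening peaks passed it. At an adjusted p under 0.05, 933 late-opening peaks (37.5%) were higher at 72 h TNF, against 10.3% of all peaks tested. Only 41 (1.65%) were lower, against 11.5% of all. The median log2 difference was 0.59 over the late-opening peaks (quartiles 0.22 and 0.98) and -0.01 over all peaks tested. All 3 libraries of 72 h TNF lay above all 3 of 24 h TNF in 1449 late-opening peaks (58.2%), against 21.6% of all peaks tested.

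Among peaks that had opened from NSPs to 1 week by at least 2 times but not late (13374 earlier-opened peaks), 25.2% were higher at 72 h TNF and 5.01% lower, with a median log2 difference of 0.30. The late-opening peaks thus had the larger share of rises, but the difference between the 2 sets was not tested. The counts called grew with the height of a peak. In the lowest of 4 equal bins by 1 week mean (50.0 to 87.4), 99 of 623 late-opening peaks (15.9%) were higher, and in the highest bin (356 to 4070) 383 of 623 (61.5%) were. Other peaks tested in the same ranges of 1 week mean were higher in 6.56% and 18.2%. Over the 4 equal bins by height, the median log2 difference of the late-opening peaks was 0.57, 0.58, 0.65 and 0.58. Had the peaks been chosen after scaling to equal totals, 371 of 952 (39.0%) would have been higher and 19 (2.00%) lower, a comparison added after seeing the data.

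**Figure D3:**
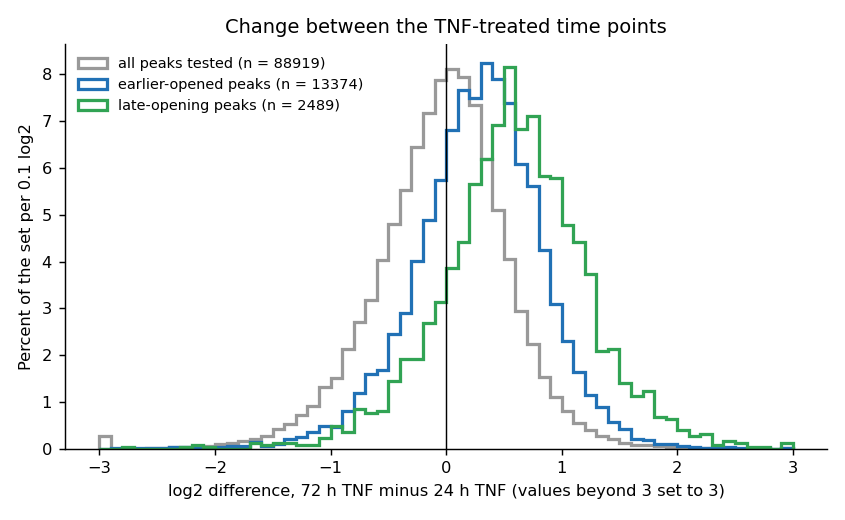
Histograms of the log2 difference between 72 h TNF and 24 h TNF, in percent of each set per 0.1 log2, for late-opening, earlier-opened and all peaks tested. The late-opening curve is shifted to the right, with a median of 0.59, against 0.30 for earlier-opened peaks and -0.01 for all peaks.

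The calls between the TNF times were also counted by untreated profile, a grouping built from the means that the rule used and given as a description. Of the stepwise peaks, 885 (44.4%) were higher at 72 h TNF and 3 (0.151%) lower. Of the peaks of another order, 45 (9.51%) were higher and 36 (7.61%) lower. Over all peaks tested, 23.8% of the stepwise ones were higher and 0.797% lower, against 5.93% and 14.9% of the rest. Across the 2489 late-opening peaks, the change from 24 h to 72 h with TNF correlated with that without TNF, with Pearson's r at 0.66 and Spearman's rho at 0.64 (0.80 and 0.72 over all peaks tested). This correlation is across peaks, which are not independent, and the 72 h libraries of both courses share the name tag. The change without TNF was taken from libraries that the rule used. The correlation, and the count below of peaks higher in both courses, are therefore a description only. In 2105 late-opening peaks (84.6%) the mean of log2 values was higher at 72 h TNF than at 24 h TNF, against 49.3% of all peaks tested. In 1880 (75.5%) it was higher at 72 h in both courses, against 37.9%.

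**Figure D4:**
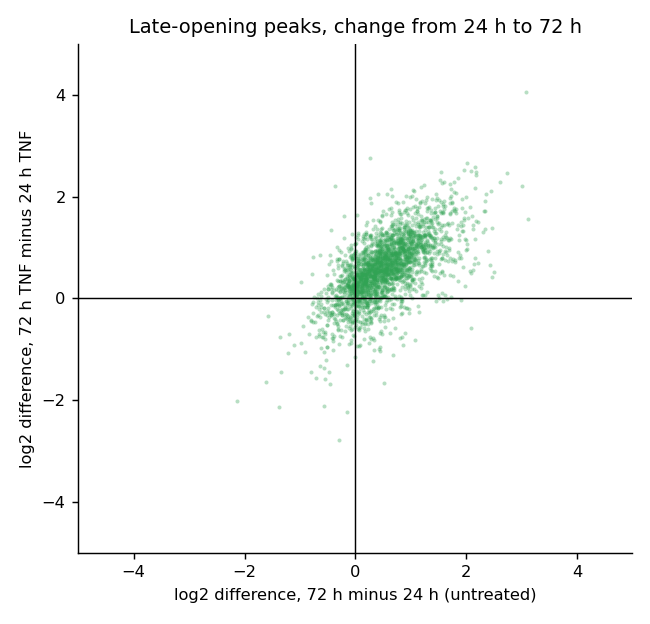
Each point is 1 of the late-opening peaks, with its log2 difference between 72 h and 24 h without TNF (horizontal) and with TNF (vertical); 2 peaks lie beyond the limits of 5 and are not shown. Most points, 1880 of 2489, lie in the upper right, where both differences are above 0. The horizontal values come from libraries that the rule used, so the plot is a description only.

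The smallest p among rises between the TNF times, in peaks whose libraries did not overlap, belonged to 2 peaks of the patch scaffold. They were at 1 read, the lowest value, in every 24 h TNF library and read 81.3 to 134 and 63.6 to 106 at 72 h TNF. Both were also at 1 read in all NSP and untreated 24 h libraries, whose names lack the tag. In the tagged 72 h libraries without TNF they read 68.2 to 92.1 and 31.1 to 50.2. Their rise went with the tag, from which time cannot be told apart. A peak 5.89 kb from an end of Jade2, a gene of a histone acetyltransferase complex subunit (chr11:51807310-51807810), read 121, 106 and 89.3 at 24 h TNF and 364, 349 and 362 at 72 h TNF. It rose by a log2 difference of 1.77 ± 0.15 (SE, adjusted p 3.7e-10), and its 1 week libraries read 960 to 1102. A peak within Cfap61, a gene of motile cilia (chr2:146062486-146062986), read 180, 257 and 196 at 24 h TNF and 759, 680 and 696 at 72 h TNF. Its log2 difference was 1.76 ± 0.16 (SE, adjusted p 1.7e-09). A peak in Elp6, a gene of the Elongator complex, 12.4 kb from the start of Scap (chr9:110320685-110321185), rose by 1.72 ± 0.15 (SE, adjusted p 1.8e-09).

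A few late-opening peaks went the other way between the TNF times. A peak in Nav1, a neuron navigator gene (chr1:135483898-135484398), read 117, 106 and 133 at 24 h TNF and 32.2, 16.3 and 27.6 at 72 h TNF, a log2 difference of -2.23 ± 0.32 (SE, adjusted p 1.5e-05). It then read 213 to 272 in the untreated 1 week libraries. A peak shared by Ralgps1 and Angptl2, the latter encoding an angiopoietin-like secreted protein, fell by 2.11 on the log2 scale (adjusted p 3.8e-05). Peaks near Kazn, a gene of cell junctions (-1.45, adjusted p 7.3e-05), and 276 kb from Irx2, a homeobox gene (-1.64, adjusted p 7.3e-05), fell as well. In each of these peaks the 3 libraries of 72 h TNF all lay below those of 24 h TNF, as their choice required.

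Set against the untreated cells of the same time, the medians were higher with TNF. The ratio of the 72 h TNF mean to the 72 h mean had a median of 1.22, and 319 peaks (12.8%) were at 2 or more, against 2.99% of all peaks. At most 1/2 was found in 78 (3.13%), against 2.86%. At 24 h the median ratio was 1.13, with 249 peaks (10.0%) at 2 or more, against 4.15%, and 59 (2.37%) at 1/2 or less, against 1.54%. In 157 peaks (6.31%) the ratio was 2 or more at both times, against 1.77% of all peaks. The rule required low untreated means, so these ratios are in part fixed by the choice of the peaks and nothing is read from them.

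The 1 week mean was at least 2 times the 72 h TNF mean in 1348 late-opening peaks (54.2%), against 5.36% of all peaks, with median ratios of 2.11 and 1.03. Among earlier-opened peaks the share was 17.3%. In 2072 late-opening peaks (83.2%) all 4 libraries of 1 week lay above all 6 TNF libraries, against 20.9% of all peaks. The 72 h TNF mean reached the 1 week mean in 122 late-opening peaks, against 47.6% of all peaks. The rule required a high 1 week mean, so that these values too are in part fixed by the choice and nothing is read from them. A peak 8.31 kb from the start of Sparc, a matricellular glycoprotein gene (chr11:55428144-55428644), came close to its 1 week level with TNF. Its libraries read 823, 810 and 853 at 72 h TNF, 810, 878, 948 and 918 at 1 week, and only 419, 313 and 387 at 72 h without TNF. It was already at 681, 691 and 741 at 24 h TNF and did not pass the test between the TNF times (adjusted p 0.18). A peak 0.789 kb from an end of Dpysl2, a gene of cytoskeletal remodelling in neurites, was higher at 72 h TNF (118, 106 and 86.4) than at 1 week (74.1 to 85.8), without overlap.

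The late-opening peaks lay farther from gene starts than the peaks of the table as a whole. Of the 2486 that could be placed against a protein-coding gene, 38 (1.53%) had their centre within 1 kb of a gene start, against 15.2% of all peaks and 3.17% of earlier-opened peaks. Where the RefSeq table lists no start, both ends of the gene were used, and 12 of the 38 were placed in this way. Within 5 kb the share was 6.76%, against 23.4% of all peaks. The median distance was 49.4 kb, against 26.0 kb over all peaks and 35.4 kb over earlier-opened peaks, and 31.4% of the late-opening peaks lay more than 100 kb away, against 20.9%. Inside a protein-coding gene lay 44.8%, against 53.5% of all peaks. No peak was assigned to an exon or intron.

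**Figure D5:**
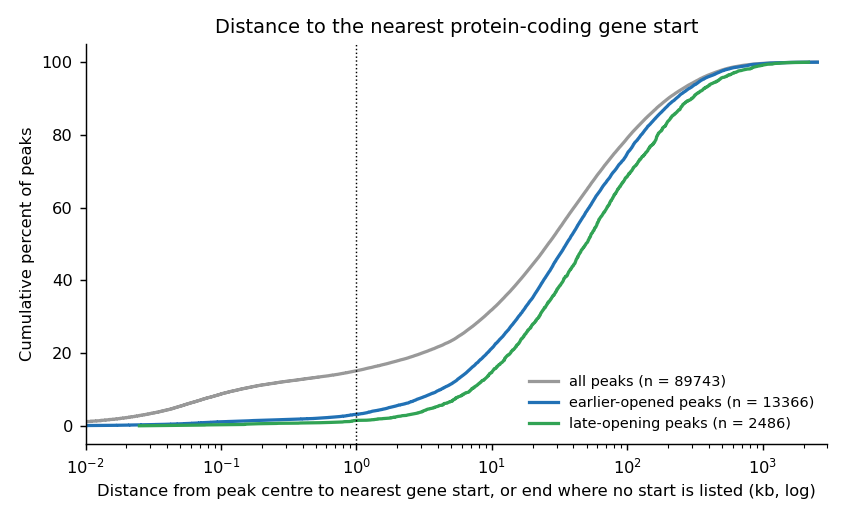
Cumulative percent of peaks by the distance from the peak centre to the nearest protein-coding gene start (kb, log axis; both gene ends where no start is listed); the dotted line is at 1 kb. At that line the late-opening curve stands at 1.53%, that of earlier-opened peaks at 3.17% and that of all peaks at 15.2%.

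By chromosome, late-opening peaks made up 2.08% (chromosome 11) to 4.11% (chromosome X) of the peaks on the autosomes and X, and none of the 42 peaks on chromosome Y. With gaps of at most 10 kb, 181 late-opening peaks formed 88 runs, which were not compared with runs of other peaks. The largest runs had 3. These lay in or next to Dlgap4, Kcnab1 and Ctnnal1 and near Ccn5 and Amotl2, the last of which encodes an angiomotin-like protein of the Hippo pathway. The 3 peaks near Ccn5, a matricellular protein gene, had 1 week means of 668 to 777.

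Of 21887 protein-coding genes, 1232 (5.63%) had a late-opening peak within them or within 10 kb, 198 had at least 2 and 51 at least 3. Such peaks made up 2.20% of all peaks at genes. Slit3, which encodes a secreted axon guidance ligand, and Shroom3, which encodes an actin-binding protein of apical constriction, had the most, with 6 each. Nuak1, a gene of an AMPK-related kinase that acts on myosin phosphatase, Palld, which encodes the actin-bundling protein palladin, and Tln2, which encodes a talin that links integrins to actin, had 5 each, as did Macf1, the gene of a microtubule-actin crosslinking factor, which tied with them and was therefore added after its count was seen. The 6 and 5 peaks stood among 33 peaks at Slit3 (587 kb long), 38 at Shroom3 (282 kb), 29 at Palld (391 kb), 29 at Tln2 (417 kb) and 38 at Macf1 (338 kb), but among only 11 at Nuak1 (69.8 kb). Long genes have more room for peaks, and the genes were not compared per length.

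Of the 6 Slit3 peaks, the one with the largest ratio lay 249 kb from the start (chr11:35369908-35370408). It read 23.4, 15.1 and 21.9 in NSPs, 99.1, 44.3 and 57.9 at 24 h, 130, 127 and 149 at 72 h, and 513, 447, 451 and 430 at 1 week. With TNF it read 72.5, 79.7 and 69.6 at 24 h and 151, 135 and 148 at 72 h, a log2 difference of 0.96 ± 0.22 (SE, adjusted p 0.0023). Over the 6 Slit3 peaks, 2 passed the test between the TNF times, both higher. The log2 differences of the 6 ranged from -0.40 to 1.05.

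At Shroom3, 4 of 6 peaks were higher at 72 h TNF. The tallest of them (chr5:92698359-92698859, 23.3 kb from the start of Ccdc158) was higher at each later time, from 92.8 ± 5.13 in NSPs to 437 ± 44.1 at 24 h, 756 ± 32.6 at 72 h and 1657 ± 113 at 1 week (SD, n = 3, 3, 3 and 4). With TNF it went from 580 ± 46.2 to 1056 ± 59.1 (SD, n = 3 each), a log2 difference of 0.87 ± 0.11 (SE, adjusted p 1.5e-06). Over the Shroom3 peaks the log2 difference ranged from -0.02 to 1.86.

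The Nuak1 peaks did not move as one between the treatments. A peak within the gene (chr10:84411518-84412018) read 304, 297 and 410 at 72 h but 100, 126 and 125 at 72 h TNF, and 828 to 979 at 1 week. Another, 7.01 kb from the start (chr10:84447432-84447932), read 625, 563 and 628 at 72 h and 822, 1026 and 909 at 72 h TNF, on its way to 1708 to 2071. Between the TNF times 2 of the 5 were higher and none lower. Their log2 differences ran from -0.53 to 0.75.

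At Palld, a pair of neighbouring peaks 24.9 and 26.2 kb from the start read 812 ± 73.6 and 827 ± 39.1 at 1 week (SD, n = 4), against 274 ± 24.8 and 290 ± 14.9 at 72 h (SD, n = 3). The second of them rose between the TNF times by 1.13 ± 0.18 on the log2 scale (SE, adjusted p 4.2e-05), and it was the only Palld peak of the 5 called. The peak with the largest Palld ratio, 4.33 (chr8:61773589-61774089), dipped between 24 h (26.2, 23.6 and 32.0) and 72 h (20.6, 7.18 and 6.37) before 109 to 134 at 1 week. A further one (chr8:61803673-61804173) was as high with TNF at 24 h (66.3, 71.1 and 70.6) and 72 h (84.9, 76.9 and 70.8) as at 1 week (66.1 to 81.5), with untreated values of 25.7 to 38.2 at 72 h.

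Of the 5 Tln2 peaks, 3 were higher at 72 h TNF, and of the 5 Macf1 peaks 4 were. The Tln2 peak at chr9:67464316-67464816 read 139, 148 and 138 at 24 h TNF and 303, 269 and 271 at 72 h TNF, a log2 difference of 0.98 ± 0.17 (SE, adjusted p 0.00013). Its 1 week libraries read 617 to 748. The Tln2 peaks had ratios of 2.00 to 2.38 and the Macf1 peaks of 2.01 to 2.57.

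At gene starts the late-opening peaks were few but in part tall. The 38 peaks lay at 36 genes, and 22 of them were higher and 1 lower at 72 h TNF than at 24 h TNF, where 10.3% and 11.5% of all peaks tested and 37.5% and 1.65% of all late-opening peaks were. The largest ratio, 3.96, was that of a peak 0.941 kb from the start of Heg1, a transmembrane receptor gene of endothelial and cardiac junctions. It read 342, 334, 438 and 341 at 1 week and 108, 89.7 and 77.8 at 72 h. Palm3, a paralemmin gene, had a peak 0.256 kb from its start that went from 9.35 to 10.6 in NSPs to 408 to 594 at 1 week. It rose between the TNF times from 105, 77.6 and 85.2 to 167, 164 and 223 (log2 difference 1.04 ± 0.19 SE, adjusted p 0.00035).

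The genes whose sequences are shown above differed in course. The Crygs peak read 11.1, 2.36 and 5.98 in NSPs, 39.8, 10.3 and 19.7 at 24 h, 73.3, 76.6 and 99.4 at 72 h, and 222 ± 3.79 at 1 week (SD, n = 4), so that its lowest level was a few reads. It rose with TNF from 46.9, 50.6 and 78.9 to 157, 111 and 126 (log2 difference 1.17 ± 0.37 SE, adjusted p 0.023). The peaks of Trip6, Tpm1 and Myl9, by contrast, were open in NSPs already.

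At Trip6 the libraries read 68.3, 59.8 and 67.1 in NSPs, 87.7, 66.4 and 93.6 at 24 h, 91.4, 120 and 107 at 72 h, and 261, 303, 227 and 287 at 1 week. The 1 week libraries lay above all others, and the TNF times did not pass the test (113, 107 and 122 against 126, 114 and 114, adjusted p 0.86). At Tpm1 the NSP libraries read 85.9, 140 and 148, and the means were 139 ± 26.3 at 24 h, 159 ± 14.7 at 72 h (SD, n = 3) and 377 ± 44.1 at 1 week (SD, n = 4). With TNF they were 172 ± 16.7 and 211 ± 4.10 (SD, n = 3, adjusted p 0.25).

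Myl9, whose window is shown for its ratio among the 10, was similar, at 406 ± 76.9, 425 ± 10.2, 460 ± 31.1 (SD, n = 3) and 1002 ± 88.7 (SD, n = 4). Its TNF libraries read 519, 510 and 448 at 24 h and 536, 572 and 583 at 72 h (adjusted p 0.25). The Sgms1 peak, in contrast, rose between the TNF times from 63.0 ± 3.31 to 152 ± 18.1 (SD, n = 3), a log2 difference of 1.25 ± 0.22 (SE, adjusted p 0.00014). Without TNF it read 86.9 ± 9.52 at 72 h (SD, n = 3) and 198 ± 32.6 at 1 week (SD, n = 4). The interval between the TNF times thus held a called rise at Crygs and Sgms1, and at Trip6, Tpm1 and Myl9 it held none.

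Other gene starts and ends with a late-opening peak within 1 kb were those of Snap25, Samhd1, Rab29, Crhr2, Sh3rf2 and Cldn34c4. The Snap25 peak lay 0.925 kb from an end of the gene, which encodes a synaptic vesicle fusion protein. It read 12.3, 12.2 and 7.31 in NSPs and 102 to 205 at 1 week, and it rose between the TNF times (log2 difference 1.48 ± 0.35 SE, adjusted p 0.0035). The peaks of Samhd1, a deoxynucleotide triphosphohydrolase gene (adjusted p 0.023), and of Crhr2, a corticotropin-releasing hormone receptor gene (adjusted p 0.041), rose as well, by 1.05 and 1.24. Those of Rab29 (-0.44, adjusted p 0.32), Sh3rf2 (-0.39, adjusted p 0.52) and Cldn34c4 (0.35, adjusted p 0.39) did not pass. At Crhr2 and Cldn34c4 the lowest 1 week library (44.0 and 103) lay within the range of the other groups.

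The genes of 14 lists, drawn from textbook knowledge with earlier results of these data known, were searched for late-opening peaks within them or within 10 kb, where 5.63% of all protein-coding genes had one. Extracellular matrix and adhesion genes had one in 7 of 24 (29.2%): Bcan, Bgn, Col11a1, Col8a1, Fbln5, Sparc and Tnc. Retinoid and nuclear receptor genes had one in 4 of 19 (21.1%), among them Aldh1a1, Rarb and Thrb. Lists with 0 were oligodendrocyte lineage, microglia and macrophage, fibroblast and meningeal (each of 12) and reactive astrocyte (of 24) genes. The remaining lists had 1 gene each, apart from the neuronal list with 2 of 12 (16.7%), Snap25 and Syt1. Counted by peaks, the late-opening share was 5.52% at matrix, 3.09% at retinoid and 3.41% at neuronal genes, against 2.20% of all peaks at genes. The mature astrocyte list had 1 gene of 25 (4.00%), and 0.690% of the peaks at its genes were late-opening. These counts were not tested, and long genes weigh more in them.

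Among matrix genes, the peak in Fbln5, which encodes a protein of elastic fibres, read 7.80 ± 2.90 in NSPs, 37.8 ± 6.24 at 24 h and 44.5 ± 17.0 at 72 h (SD, n = 3). It read 133 ± 25.0 at 1 week (SD, n = 4). The peak in Tnc, the tenascin C gene, read 8.77 ± 4.60, 9.03 ± 4.56 and 32.0 ± 7.85 (SD, n = 3) and then 72.5 ± 7.11 (SD, n = 4). A peak between Bcan, which encodes the proteoglycan brevican, and Nes, the gene of the progenitor filament protein nestin, lay 11.9 kb from the start of Nes. It was highest in NSPs before 1 week, at 206 ± 67.7, and fell to 129 ± 13.9 at 24 h before 458 ± 66.6 at 1 week. None of these 3 passed the test between the TNF times (adjusted p 0.074, 0.21 and 0.067).

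Among retinoid and nuclear receptor genes, the Aldh1a1 peak rose between the TNF times, from 15.0, 21.5 and 7.27 to 31.3, 42.9 and 22.8 (log2 difference 1.17 ± 0.41 SE, adjusted p 0.04). Of the 2 named peaks in Thrb, a thyroid hormone receptor gene, the one with a 1 week mean of 185 ± 8.96 (SD, n = 4) rose (0.85 ± 0.26 SE, adjusted p 0.018). The other, with 54.2 ± 6.35 (SD, n = 4), did not (-0.77 ± 0.57 SE, adjusted p 0.34).

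The single peak at a mature astrocyte gene lay within Kcnj10, which encodes the inward rectifier potassium channel Kir4.1 (chr1:172359065-172359565). It read 346, 219 and 272 in NSPs, 413, 431 and 293 at 24 h, 483, 431 and 540 at 72 h, and 1189, 1111, 1411 and 1408 at 1 week. With TNF it rose from 243, 290 and 289 to 401, 370 and 455 (log2 difference 0.57 ± 0.16 SE, adjusted p 0.0089). Its 72 h TNF libraries overlapped those of 72 h without TNF. The start of Kcnj10 itself was not late-opening, at 1208 ± 145 in NSPs (SD, n = 3) and 1380 ± 74.7 at 1 week (SD, n = 4).

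The taller of 2 peaks in Syt1, a synaptic calcium sensor gene, rose between the TNF times (0.39 ± 0.13 SE, adjusted p 0.026) and read 1626 ± 116 at 1 week (SD, n = 4). Of 2 neighbouring peaks in Kdr, a VEGF receptor gene, one rose (1.50 ± 0.31 SE, adjusted p 0.00082) and the other did not pass (0.76 ± 0.28 SE, adjusted p 0.054). The peak in Lrp2, an endocytic lipoprotein receptor gene, reached 1399 ± 120 at 1 week from 592 ± 106 at 72 h (SD, n = 4 and 3). Those near Pifo, a cilium gene, in Hlf, a circadian transcription factor gene, and in Slc39a12, a zinc transporter gene, read 127 ± 23.8, 60.1 ± 13.2 and 65.0 ± 12.1 at 1 week (SD, n = 4). These last 4 did not pass between the TNF times (adjusted p 0.079, 0.51, 1 and 0.15, in the order named).

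The level of the start peaks of marker genes was summed per cell type list, which does not measure the share of cells of a type. The 20 mature astrocyte genes of 25 with a start peak summed to 10975 to 11665 at 1 week, 9050 to 9517 at 72 h and 10138 to 13199 in NSPs. Of these 20, 14 had a higher mean at 1 week than at 72 h, such as Mlc1 (2494 ± 164, n = 4, against 1811 ± 69.0, n = 3, SD), and 6 did not, such as Gfap, the astrocyte filament gene (258 ± 15.0, n = 4, against 529 ± 31.6, n = 3, SD). Only 8 of the 20 had a higher mean at 1 week than in NSPs. Fibroblast and meningeal start peaks (4 of 12 genes) summed to 1654 to 1826 at 1 week, 1150 to 1231 at 72 h and 1888 to 1935 in NSPs. Ependymal ones (8 of 12) summed to 6069 to 6848, 4229 to 4886 and 6049 to 8533, in the same order. Microglial start peaks (3 of 12) summed to 288 to 351, 327 to 386 and 317 to 401, and endothelial ones (5 of 12) to 559 to 689, 591 to 713 and 926 to 952. Neuronal ones (7 of 12) summed to 1681 to 2073, 1556 to 1653 and 2045 to 2510, and oligodendrocyte ones (6 of 12) to 1716 to 1958, 1623 to 1713 and 3429 to 3924. The mean was higher at 1 week than at 72 h in 4 of 4 fibroblast, 7 of 8 ependymal and 4 of 6 oligodendrocyte start peaks. It was so in 3 of 7 neuronal, 2 of 5 endothelial and 1 of 3 microglial ones. The sum of all deposited values was also higher at 1 week than at 72 h, as given above. None of these start peaks was late-opening. The part of a changed cell mixture in the late opening was not tested.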

How the data were processed

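ATAC-seq was measured in 19 libraries of 6 groups, as the labels assign them. Per the submitters' processing notes and methods, the authors used FastQC, Trim Galore, Bowtie2, SAMtools and MACS2 with mm10, and deposited 1 table of 90154 peaks, 89898 of them 500 bp long, with a normalised signal per library. The signal is whole reads multiplied by 1 factor per library: 100% of values were whole multiples, within 0.01, of the lowest value of their library. This lowest value was taken as 1 read, and whether it stands for no reads could not be told. The recovered reads carry this limit. The versions of these tools are not given in the sources used here, and how the factors were set is not either. All 19 columns were used.

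The late-opening peaks were chosen on group means of this signal, and the peaks, gene lists and named items were chosen with earlier results of these data known. The test of 72 h TNF against 24 h TNF used limma 3.58.1 (R 4.3.3) with an intensity trend on log2(value + 1) over all 19 libraries, after edgeR's filterByExpr (minimum count of 10 on the recovered reads), with Benjamini-Hochberg adjustment at 0.05. It was tested on simulated data. edgeR 4.0.16 and DESeq2 1.42.0 on the recovered reads were alternatives, with other scalings, filters, offsets, replicate blocks and each library left out. Fold changes on this scale understate the change of low peaks. The depth of 9640256 to 39349111 reads in peaks limits low values, where 1 read is worth 0.471 to 2.20.

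Peaks were named by rule: the 12 largest ratios, the 12 largest within 1 kb of a gene start, the 5 smallest p in each direction with libraries that do not overlap, up to 4 per gene list, the 5 genes with the most peaks, and the 3 on either side of each threshold. A few peaks that this rule takes are not reported here. The other start peaks were named after their values were seen. Gene positions came from RefSeq on GRCm38.p6, with a start for 17492 of 21887 protein-coding genes and both ends for 4395. Same-numbered libraries of 24 h TNF and 72 h TNF did not deviate together (correlations of -0.013 to 0.006), so no block entered the test. The other groups were not checked in this way.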

Additional observations from a re-analysis of the deposited data

Results flagged for a closer look

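In the group of 4 libraries at 1 week, the only one large enough for this check, 109 values, the median over the late-opening peaks and the named peaks, were searched for a library far from the other 3, by a gap that takes up most of the group's range (Dixon's 95% limit). The check found 6, and chance alone gives about 1 in 20. Replicate 4 was the lowest at the Enox2 peak, with 37.5 normalised reads against 55.0 to 57.3 in the others, and at the Col5a2-side peak, with 365 against 383 to 385. Replicate 3, the library with the fewest reads, was the highest in the other 4. It read 438 against 334 to 342 at the Heg1 peak, 594 against 408 to 440 at the Palm3 peak, 1578 against 1329 to 1356 at the Lrp2 peak and 268 against 168 to 182 at the Plcxd1 peak.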

How the results depend on the processing

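The number of late-opening peaks depended on the scaling: 952 after scaling to equal totals, 1913 with TMM factors and 3785 with loess offsets, against 2489. It was 2462 with group medians, 1709 with a 1 week mean of at least 100 and 477 with a ratio of at least 3. Leaving out 1 library at a time gave 2282 to 2681 peaks, of which 2162 to 2485 were among the 2489. The share at gene starts was 1.53% within 1 kb and 6.76% within 5 kb.

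Between 72 h TNF and 24 h TNF, the late-opening peaks called higher numbered 912 to 1116 under total-read scaling, loess offsets, edgeR, DESeq2, no filter and log2(value + 5), and their median log2 difference stayed at 0.55 to 0.65. With only the 6 libraries compared, 1280 were higher and 66 lower, with 14375 higher and 15451 lower over all peaks. Leaving out 1 library at a time gave 697 to 751 higher and 28 to 33 lower late-opening peaks, and 5828 to 6716 higher and 6900 to 7985 lower over all peaks. The count over all peaks fell by more than 1.5 times without 24 h TNF replicate 3 (5998) or without 72 h TNF replicate 1 (5828). Among the 952 peaks chosen after total-read scaling, 371 were higher. With a replicate block by title number, 917 late-opening peaks were higher and 37 lower, and 8778 and 10045 over all peaks; with a block by the number in the library names these were 859, 32, 7697 and 8978. The labels do not say whether same-numbered libraries share a culture. The 10 peaks chosen for this comparison kept their direction and their call in all 150 refits. They were chosen for the smallest p among the calls, so this was largely fixed by the choice and does not speak for the other calls.

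Peaks of a few reads are limited by depth. Every rise to 1 week rests on 1 set of 4 libraries, and the factors of the deposited signal could not be checked.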
